A study of Mus musculus with 4 samples.

Results

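The 6 genes examined here encode the Fc receptors that were followed in leukocytes of mouse skin wounds. They were taken by symbol from the 31053 genes of the count files: Fcgr1, Fcgr3 and Fcgr4 (activating receptors for IgG), Fcgr2b (the inhibitory receptor for IgG), Fcer1g (the signalling chain that activating receptors share) and Fcgrt (the heavy chain of the neonatal Fc receptor). All 6 were measured in 4 single-cell libraries, 1 for each genotype and time. The wild-type group (Angptl4+/+) came from C57BL6/J mice, and the other group (Angptl4-/-) carried a null allele of Angptl4. Both were 8-week-old males with 3 mm excisional wounds of the dorsal skin, sampled at 1 or 5 days postwounding (dpw). The Angptl4-/- line came from another source than the wild-type mice, and the number of mice in each library is not given in the sources used here. Live CD45+ cells were sorted and their RNA was counted from the 3′ end in droplets. No condition had more than 1 library and no test was made, so every interval given here covers counting error only and a difference between genotypes or days is a difference between 2 libraries.

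Fc gamma receptors bind the constant part of IgG and couple antibody-coated targets to uptake, degranulation and cytokine release. Fcgr1, Fcgr3 and Fcgr4 reach the cell surface with the chain encoded by Fcer1g, which carries an activating motif read by the kinase Syk. Fcgr2b instead carries an inhibitory motif in its own tail, which recruits the phosphatase encoded by Inpp5d. Fcgrt works inside the cell, where it pairs with the light chain encoded by B2m and returns IgG from endosomes to the surface.

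Of 4772 to 5419 barcodes per library, 4738 to 5346 passed the filter. Their median depth ranged from 3735.5 to 4975.5 UMIs (unique molecular identifiers), and Ptprc, the gene of CD45, was detected in 89.8% to 93.8% of them. Pairs of libraries shared 5 to 15 barcodes. Angptl4 had 47 and 78 UMIs in the Angptl4+/+ libraries and 0 in both Angptl4-/- libraries. Set against a floor of 3 UMIs per library, it was lower in the knockout by at least 13.1-fold on the first of these days and by at least 23.7-fold on the other. Classes were rebuilt from marker lists that held none of the 6 genes. Neutrophil-like cells were the most numerous class (2697 to 3887 cells per library), followed by macrophage-like cells (648 to 1544). The smaller classes were dendritic cell-like (85 to 298), monocyte-like (126 to 154) and NK cell/T cell-like cells (36 to 228), whose order varied between libraries. A level is the number of UMIs of a gene per 1000000 UMIs of its class (CPM). It is compared for 1 gene across classes and libraries and not between genes, and it cannot tell fewer positive cells from less RNA per cell.

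Of the 6 genes, 4 lie in 1 stretch of chromosome 1 (GRCm38). Fcgr2b occupies 170958617 to 170976547 on the minus strand. Fcgr4 starts 42.4 kb, Fcgr3 74.6 kb and Fcer1g 253 kb beyond it. Fcgr1 lies on chromosome 3 from 96282909 to 96293969 and Fcgrt on chromosome 7 from 45092990 to 45103851, both on the minus strand. The sequence before the RefSeq start of each gene is shown because Fcgr3 and Fcgr4 had similar patterns over the leukocytes and Fcgr1 and Fcgr2b had another. Each is the nearest run of 60 bases before the RefSeq start that lies outside annotated exons (GRCm38.p6), written 5′ to 3′ on the strand of the gene. For Fcgr2b and Fcgr3 the gene bounds of the annotation used for positions reach further upstream, so these windows lie inside those bounds. Capitals mark TTCCTC, the reverse complement of GAGGAA, a sequence bound by the myeloid factor PU.1, which was searched on both strands.
Fcgr1, chr3:96293970-96294029, minus strand: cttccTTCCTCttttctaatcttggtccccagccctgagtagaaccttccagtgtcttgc
Fcgr3, chr1:171059404-171059463, minus strand: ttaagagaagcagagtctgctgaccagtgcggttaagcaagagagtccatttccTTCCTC
Fcgr4, chr1:171018860-171018919, plus strand: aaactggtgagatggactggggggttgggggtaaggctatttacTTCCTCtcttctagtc
Fcgr2b, chr1:170976128-170976187, minus strand: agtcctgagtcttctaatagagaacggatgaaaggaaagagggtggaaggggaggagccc
Fcer1g, chr1:171234366-171234425, minus strand: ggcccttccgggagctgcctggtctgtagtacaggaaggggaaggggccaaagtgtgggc
Fcgrt, chr7:45103852-45103911, minus strand: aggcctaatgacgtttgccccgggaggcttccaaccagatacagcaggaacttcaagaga
The letters GAGGAA stood in the window of 3 of the 6 genes (Fcgr1, Fcgr3 and Fcgr4, the activating receptors) and in the 60 bases before the start of 6.08% of 32851 RefSeq promoters. In longer windows of 300 bases 28.3% of promoters held them. The shorter letters GGAA also stand in the windows of Fcgr2b, Fcer1g and Fcgrt, so the longer match does not set the activating receptors apart by PU.1 sites. A match is a description of the letters and not of a bound site.

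The 6 genes fell into 2 kinds of pattern over the wound leukocytes. Fcgr1, Fcgr2b and Fcgrt were genes of mononuclear phagocytes and were far lower in neutrophil-like cells. Fcgr3, Fcgr4 and Fcer1g were present in neutrophil-like and in macrophage-like cells at similar levels. The question behind this comparison was in which cells of the wound each receptor was transcribed.

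Fcgr1, the high-affinity IgG receptor, had its highest level in macrophage-like cells, at 773 and 430 CPM in Angptl4+/+ wounds and 929 and 479 CPM in those of Angptl4-/- mice at 1 and 5 dpw. Monocyte-like cells held 139 to 174 CPM and dendritic cell-like cells 52.3 to 115 CPM, and these ranges did not overlap. Neutrophil-like cells held 3.7 to 7.9 CPM. Although they made up most of each library, they gave only 0.960% to 1.68% of the Fcgr1 UMIs, and macrophage-like cells gave 89.5% to 92.4%. The share of neutrophil-like cells with an Fcgr1 UMI was 1.37% to 1.82%. This was within the range found among NK cell/T cell-like cells (0 to 5.56%), which should lack the gene. The share over the whole class is thus not set apart from background. That comparison class was deeper and held only 36 cells in each 1 dpw library, and the part of free RNA was not tested. Of the 278 Fcgr1 UMIs in neutrophil-like cells 179 lay in the cluster led by the interferon-induced genes Ifit1 and Ifit3b. There 3.78% to 10.7% of cells held one, partly above the range of NK cell/T cell-like cells.

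Fcgr2b was also highest in macrophage-like cells. They held 530 and 598 CPM in Angptl4+/+ wounds and 478 and 545 CPM in those of Angptl4-/- mice at 1 and 5 dpw. Monocyte-like cells (128 to 211 CPM) and dendritic cell-like cells (140 to 175 CPM) overlapped with each other and lay below every macrophage-like value. In neutrophil-like cells the level was 10.2 and 13.2 CPM in Angptl4+/+ wounds and 22.1 and 35.7 CPM in those of Angptl4-/- mice, so that both Angptl4-/- values lay above both Angptl4+/+ values.

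Fcgr3, the low-affinity activating receptor, had its highest CPM in neutrophil-like cells. It was 523 and 644 CPM in Angptl4+/+ wounds and 571 and 762 CPM in those of Angptl4-/- mice at 1 and 5 dpw. Macrophage-like cells held 408 to 482 CPM and monocyte-like cells 344 to 409 CPM, so that the lowest neutrophil-like value lay above the highest value of either class. Dendritic cell-like cells held only 28.8 to 42.1 CPM. The lead of neutrophil-like cells held per UMI of a class and not per cell. Neutrophil-like cells gave 69.3% and 45.8% of Fcgr3 UMIs in Angptl4+/+ wounds, where they were 72.7% and 54.5% of cells. In those of Angptl4-/- mice they gave 75.0% and 67.8% and were 77.1% and 73.8% of cells. Macrophage-like and monocyte-like cells gave a larger share of these UMIs than of cells in each library. Fcgr3 also encodes CD16 of NK cells, and its level in the NK cell/T cell-like class varied from 46.5 to 190 CPM with 36 to 228 cells per library.

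Fcgr4 had overlapping levels in neutrophil-like and macrophage-like cells. The level was 145 and 153 CPM in Angptl4+/+ and 180 and 174 CPM in Angptl4-/- neutrophil-like cells at 1 and 5 dpw. In macrophage-like cells it was 149 and 147 CPM in Angptl4+/+ wounds and 152 and 106 CPM in those of Angptl4-/- mice. Monocyte-like cells held 55.9 to 134 CPM and dendritic cell-like cells 8.8 to 15.2 CPM.

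Fcer1g was found in nearly every myeloid cell. A UMI was present in 96.6% to 99.0% of neutrophil-like, 94.2% to 99.4% of macrophage-like and at least 99.4% of monocyte-like cells. Its level was 3194 to 3671 CPM in neutrophil-like cells, 2417 to 2888 CPM in macrophage-like cells and 2515 to 2783 CPM in monocyte-like cells. Dendritic cell-like cells (1071 to 1323 CPM) and NK cell/T cell-like cells (676 to 949 CPM) held less, with no overlap between any of these ranges and that of neutrophil-like cells. As for Fcgr3, neutrophil-like cells gave in each library a smaller share of Fcer1g UMIs (41.1% to 72.7%) than of cells (54.5% to 77.1%). Macrophage-like cells gave a larger share of these UMIs than of cells in each library.

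Fcgrt was the only one of the 6 genes with a higher level in dendritic cell-like than in macrophage-like cells within every library. Dendritic cell-like cells held 88.9 and 112 CPM in Angptl4+/+ wounds and 129 and 163 CPM in those of Angptl4-/- mice at 1 and 5 dpw. Macrophage-like cells held 33.3 and 92.3 CPM in Angptl4+/+ wounds and 35.1 and 149 CPM in those of Angptl4-/- mice. In neutrophil-like cells Fcgrt had 5 to 17 UMIs per library, or 0.3 to 1.4 CPM.

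**Figure D1:**
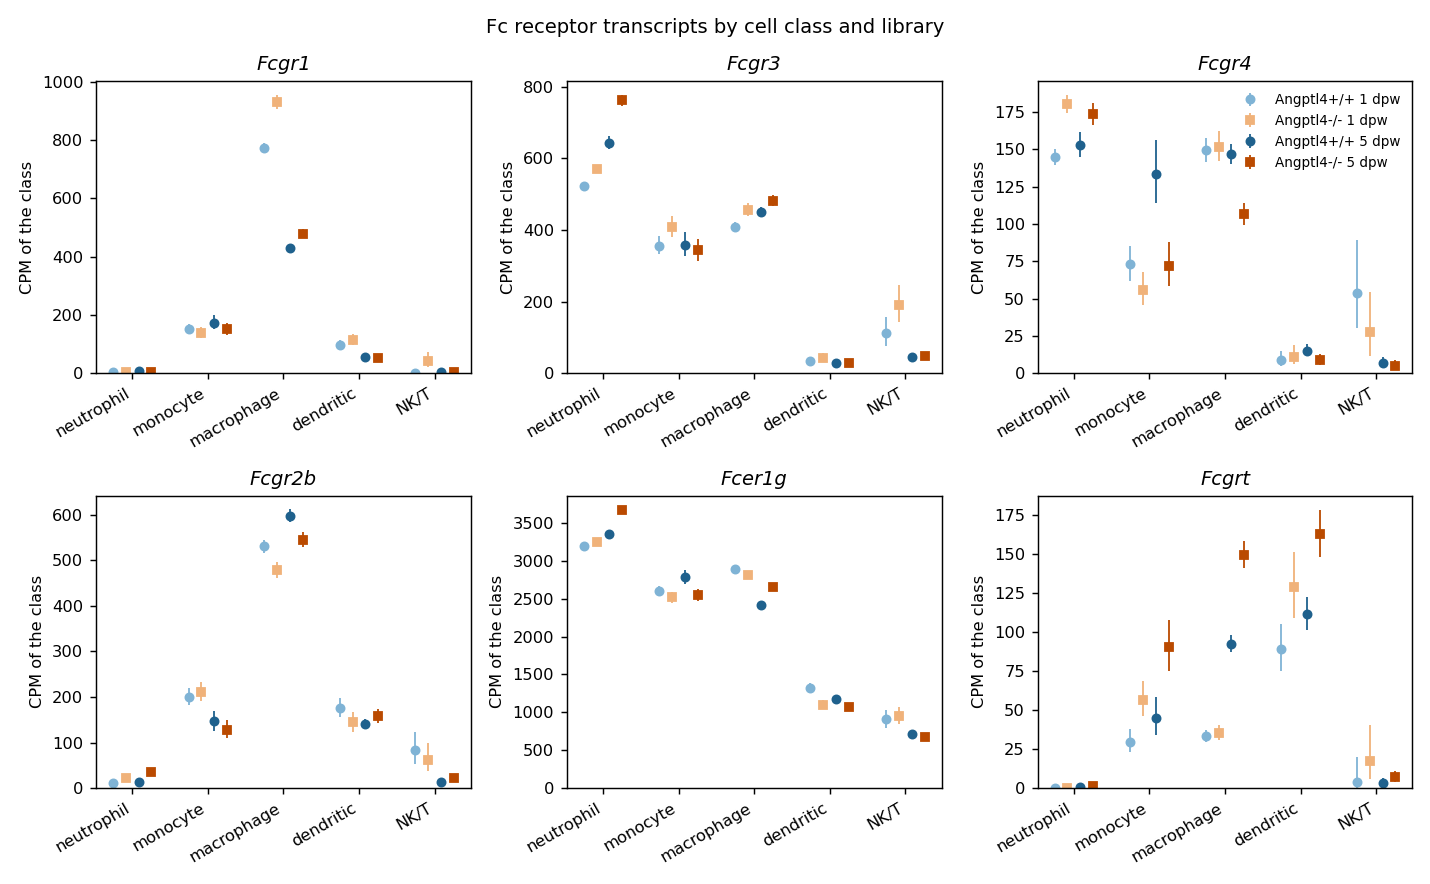
Level of each Fc receptor gene (CPM of the class, linear axis from 0) in 5 leukocyte classes, with 1 point per library and its exact Poisson 95% interval for counting error. By CPM Fcgr1 and Fcgr2b peaked in macrophage-like cells, Fcgr3 and Fcer1g were highest in neutrophil-like cells, and Fcgrt was highest in dendritic cell-like cells.

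Within each library monocyte-like and macrophage-like cells together, called mononuclear phagocytes from here on, were set against neutrophil-like cells, and the ratio separated the same 2 kinds. On the log2 scale it was 5.70 to 7.64 for Fcgr1 (51.9-fold to 200.1-fold), 3.76 to 5.51 for Fcgr2b (13.5-fold to 45.7-fold) and 6.57 to 7.0 for Fcgrt. It was -0.72 to -0.36 for Fcgr3, -0.78 to -0.07 for Fcgr4 and -0.48 to -0.17 for Fcer1g. By a rule of at least 0.5 on the log2 scale in all 4 libraries, 3 of the 6 genes were higher in mononuclear phagocytes and 0 were lower, as they were by a rule of at least 1. Of 7518 genes with enough UMIs 53.6% were higher and 11.2% lower by 0.5 (41.2% and 7.14% by 1), with a median of 1.16, so that the 3 genes with negative ratios lay to the neutrophil side of the median gene.

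The same 2 kinds appeared when all clusters were compared. Over 87 points, each a cluster in 1 library with at least 20 cells, Fcgr1 and Fcgr2b were correlated (Pearson r of 0.89), as were Fcgr3 and Fcgr4 (0.87). Fcgr1 against Fcgr3 gave 0.24 and Fcgrt against Fcgr3 gave -0.21. Of 7017 genes the most alike to Fcgr1 were Ms4a6d, Sash1 and Lrp1 (0.93 to 0.94), and to Fcgr2b they were Myof, Sash1 and Pid1 (0.90 to 0.91). Fcgr3 was most like Itgam, the gene of CD11b, followed by Cd300lb and Cd300ld (0.89 to 0.90). Fcgr4 was most like Cd300ld, Lamp2 and Fcgr3 (0.87 to 0.90). Fcer1g was most like Tyrobp, which encodes DAP12, another signalling chain of this type, with an r of 0.93, followed by Mefv and Wdfy3 (0.88 and 0.86). Fcgrt was most like Hfe, itself a partner of B2m, with Ly86 and Gdi2 next (0.88 to 0.90). The points share libraries, classes and depth, so these values are descriptions without a p.

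Inside the classes the receptors differed between sub-clusters, which are named here by 2 of their leading genes. The Stfa1/Retnlg sub-cluster was led by neutrophil genes, had a median depth of 1166 UMIs and held 13 to 159 cells per library. It was kept among macrophage-like cells without a name of its own, and without it the genotype ratios of Fcgr4 and Fcgrt in mononuclear phagocytes at 5 dpw given below were -0.53 and 0.66. Another, Dmkn/Gpr183, had 2 monocyte and 0 macrophage markers among its leading genes, so both classes were also compared as 1 population. Among macrophage-like cells Fcgr1 was highest in the sub-cluster led by the interferon-induced genes Cxcl10 and Ifit1bl1 (1184 to 1842 CPM over the 4 libraries) and lowest in that led by Retnla and Mgl2, genes of alternative activation (55.3 to 173 CPM). Fcgr4 followed with 232 to 332 CPM in the former and 45.9 to 68.7 CPM in the latter. Fcgr2b did not take this order. It was 422 to 545 CPM in the Cxcl10/Ifit1bl1 sub-cluster and 469 to 637 CPM in the Retnla/Mgl2 sub-cluster, and it was highest by mean in the Sema3c/Mt2 sub-cluster (612 to 718 CPM).

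Fcgrt had its own places. Among macrophage-like cells its mean over libraries was highest in the sub-cluster led by Ccl8 and Gas6 (207 to 301 CPM), where Fcgr4 was also high (193 to 418 CPM), and lowest in the Sema3c/Mt2 sub-cluster (2.6 to 26.4 CPM). In both 5 dpw libraries the Mcpt8/Tppp3 sub-cluster was above the Ccl8/Gas6 sub-cluster, at 220 and 322 CPM against 207 and 301 CPM. Among dendritic cell-like cells it was highest in the sub-cluster with Xcr1, the chemokine receptor of cross-presenting dendritic cells (262 to 327 CPM in 3 libraries with at least 20 cells). The Clec4n/C1qa sub-cluster of dendritic cell-like cells held most of their Fcgr2b (336 to 344 CPM). In the Apol7c/Nudt17 sub-cluster, whose leading genes include the migration genes Fscn1 and Ccr7, Fcgr2b was 3.9 to 47.5 CPM and Fcer1g 353 to 421 CPM.

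Neutrophil-like clusters differed in Fcgr1, Fcgr4 and Fcgr2b. Fcgr1 was 9.7 to 51.5 CPM in the cluster led by Ifit1 and Ifit3b and 0 to 4.6 CPM in the other clusters. Fcgr4 was 235 to 320 CPM in the Ifit1/Ifit3b cluster and 49.8 to 79.2 CPM in that led by Csf1 and Cldn1. Fcgr2b was highest in the Acot1/Egr3 cluster, at 56.6 and 25.0 CPM in Angptl4+/+ wounds and 111.5 and 62.3 CPM in those of Angptl4-/- mice at 1 and 5 dpw. Monocyte-like cells split by Fcgr4, with 121 to 273 CPM in the sub-cluster led by Ace and Adgre4, genes of patrolling monocytes, and 26.4 to 51.6 CPM in the Prtn3/Chil3 sub-cluster. Among NK cell/T cell-like cells, the sub-cluster led by Ccl1 and Gzmc held 1767 to 1971 CPM of Fcer1g and 91.1 to 105 CPM of Fcgr3 in the 2 libraries with at least 20 cells.

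**Figure D2:**
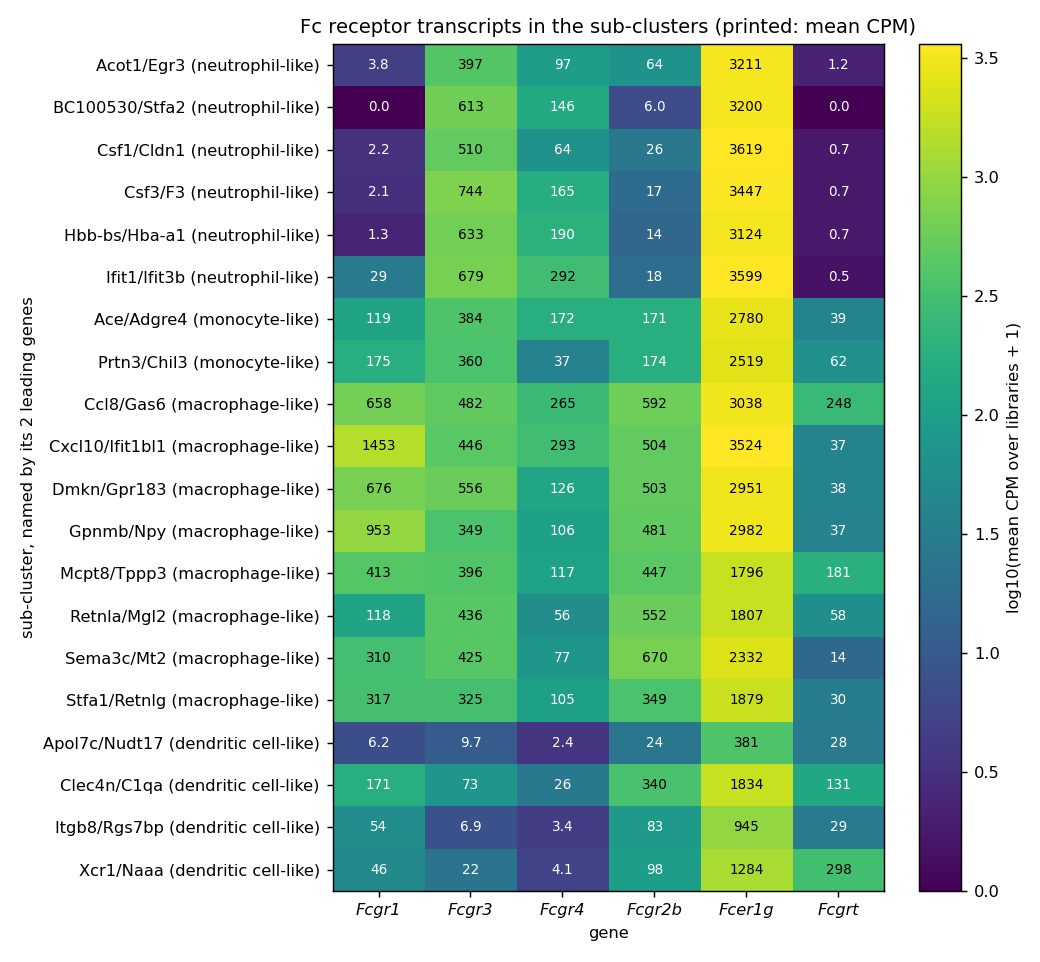
Mean CPM over the libraries of each Fc receptor gene (columns) in the myeloid sub-clusters present with at least 20 cells in 3 or more libraries (rows), coloured by log10 of the mean plus 1 and with the mean printed. The Cxcl10/Ifit1bl1 row holds the highest Fcgr1 and the Xcr1/Naaa row the highest Fcgrt, and Fcgr2b is high in every macrophage-like row.

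Between genotypes, mononuclear phagocytes held near-equal levels of most of the 6 genes. This comparison asked whether the loss of Angptl4 went with another set of Fc receptors. At 1 dpw the log2 ratio of Angptl4-/- over Angptl4+/+ in mononuclear phagocytes lay between -0.16 (Fcgr2b) and 0.30 (Fcgrt). By a rule of at least 0.5 in size, 0 of the 6 genes were higher and 0 lower, where 2.7% of 8452 genes were higher and 2.72% lower. At 5 dpw 1 of the 6 genes was higher (Fcgrt) and 1 lower (Fcgr4), against 2.35% and 4.49% of 9057 genes. On both days 0 of the 6 passed in 1 direction, against 0.371% higher and 0.731% lower of 8350 genes.

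Fcgrt was higher in Angptl4-/- than in Angptl4+/+ mononuclear phagocytes. In mononuclear phagocytes it had 365 and 1261 UMIs in Angptl4+/+ and 306 and 1287 UMIs in Angptl4-/- wounds at 1 and 5 dpw, or 32.6 and 88.3 CPM against 40.2 and 140 CPM. The log2 ratio was 0.30 (95% interval 0.08 to 0.53) at 1 dpw and 0.67 (0.55 to 0.78) at 5 dpw. The genotype gap was thus wider in the 5 dpw libraries, but after each cell was thinned to 1000 UMIs the ratio at 1 dpw was also 0.67. That thinned value rests on few UMIs and has no interval, so it does not show equal gaps on both days. After thinning 2.18% of mononuclear phagocytes held an Fcgrt UMI in the lowest library.

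Within monocyte-like cells Fcgrt was 29.5 and 44.8 CPM in Angptl4+/+ wounds and 56.5 and 90.1 CPM in those of Angptl4-/- mice. The log2 ratios were 0.94 (0.48 to 1.41) and 1.01 (0.54 to 1.5). By the same rule Fcgrt was the 1 of 6 genes higher at 1 dpw (2.41% of 4932 genes were) and at 5 dpw (2.88% of 3676), and 0.413% of 3628 genes passed upwards on both days. None of the 6 was lower at 1 dpw or on both days, against 3.41% and 0.854% of genes. Only 5 of these 3628 genes had, on both days, ratios at least as high as the smaller of its 2 ratios, a count that includes Fcgrt. The numbers of cells were small, with 126 to 154 monocyte-like cells per library.

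In macrophage-like cells alone Fcgrt differed between genotypes at 5 dpw (log2 ratio 0.69, 0.57 to 0.81) and little at 1 dpw (0.08, -0.19 to 0.34). It was the 1 of 6 genes higher by the rule at 5 dpw and 0 were lower, where 2.71% of 8851 genes were higher and 5.31% lower. At 1 dpw 0 passed in either direction, against 3.26% and 2.9% of 7831 genes. At 5 dpw it was higher in Angptl4-/- cells in 6 of 7 macrophage-like sub-clusters with at least 20 UMIs, with log2 ratios from -0.10 to 1.65. In dendritic cell-like cells the ratios of Fcgrt were 0.53 (0.19 to 0.88) and 0.55 (0.35 to 0.74). Fcgr4 had too few UMIs there for the rule, with -0.79 (-1.52 to -0.09) on 60 and 25 UMIs at 5 dpw. Of the 5 genes with at least 100 UMIs only Fcgrt was past the rule. Among all genes tested 4.78% of 3914 were higher at 1 dpw, 5.43% of 6151 at 5 dpw and 0.667% of 3896 on both days. The shares of lower genes were 5.85%, 4.7% and 0.462%. At 5 dpw Fcgrt was higher in 2 of 4 dendritic cell-like sub-clusters and lower in 2, with ratios from 1.07 in the Clec4n/C1qa sub-cluster to -0.32 and -0.50 in the Xcr1/Naaa and Apol7c/Nudt17 sub-clusters. The Fcgrt-rich Xcr1/Naaa sub-cluster was 17.8% of dendritic cell-like cells in Angptl4+/+ and 23.2% in Angptl4-/-, and the Fcgrt-poor Apol7c/Nudt17 sub-cluster 39.6% and 29.9%. B2m, its light chain, had ratios of 0.04 (0.02 to 0.07) at 1 dpw and -0.40 (-0.42 to -0.37) at 5 dpw in mononuclear phagocytes, so that at 5 dpw the chains of this receptor differed between genotypes in opposite directions.

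Fcgr4 was lower in Angptl4-/- mononuclear phagocytes at 5 dpw. In mononuclear phagocytes it was 134 CPM in Angptl4+/+ and 129 CPM in Angptl4-/- wounds at 1 dpw, and 145 CPM against 101 CPM at 5 dpw. The log2 ratio was -0.06 (-0.17 to 0.06) at 1 dpw and -0.52 (-0.64 to -0.41) at 5 dpw, where the interval holds the limit of 0.5. With DESeq2 size factors the 5 dpw ratio was -0.495 and with classes set by the marker score of each cell -0.449, so that the call was lost under both. At 5 dpw it was lower in Angptl4-/- cells in 8 of 8 macrophage-like sub-clusters with at least 20 UMIs, with log2 ratios from -1.22 to -0.02. Monocyte-like cells had ratios of -0.38 (-0.75 to -0.02) and -0.89 (-1.27 to -0.52), and Fcgr4 was the 1 of 6 genes lower by the rule there at 5 dpw, against 5.06% of all genes tested. At 5 dpw it was lower in the Ace/Adgre4 sub-cluster (-0.83, -1.28 to -0.39) and had 0.53 (-0.32 to 1.43) on 18 and 37 UMIs in the Prtn3/Chil3 sub-cluster. The Ace/Adgre4 sub-cluster, where Fcgr4 is high, was 48.1% of Angptl4+/+ and 33.6% of Angptl4-/- monocyte-like cells.

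Of the other receptors, Fcgr1 was slightly higher in Angptl4-/- macrophage-like cells, with log2 ratios of 0.27 (0.21 to 0.32) at 1 dpw and 0.16 (0.10 to 0.22) at 5 dpw. Fcgr2b was slightly lower there, with -0.15 (-0.22 to -0.08) and -0.13 (-0.19 to -0.08). Fcgr3 had 0.16 (0.09 to 0.23) and 0.09 (0.04 to 0.15), and Fcer1g had -0.04 and 0.14. Intervals that leave out 0 reflect the high counts and say nothing about the spread between mice, which 1 library per group cannot show.

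**Figure D3:**
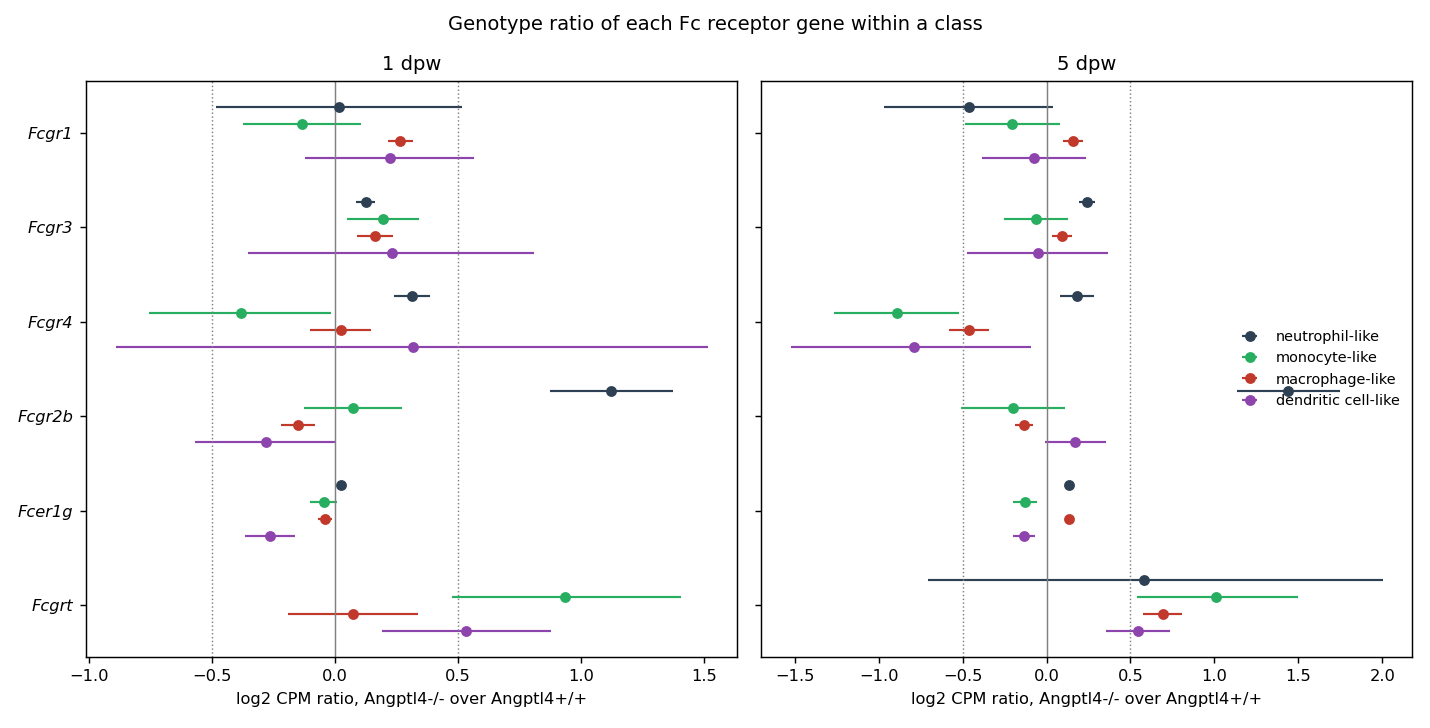
Log2 ratio of CPM, Angptl4-/- over Angptl4+/+, of each Fc receptor gene in 4 classes at 1 dpw and 5 dpw, with exact 95% intervals for counting error. Dotted lines mark 0.5 in size, and a gene with fewer than 20 UMIs over the 2 libraries is not drawn. Fcgr2b stands apart in neutrophil-like cells (1.12 and 1.44), Fcgrt lies to the right in monocyte-like cells, and Fcgr4 lies to the left in the mononuclear classes at 5 dpw.

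In neutrophil-like cells 1 of the 5 genes with at least 100 UMIs differed between genotypes, and it was Fcgr2b, the inhibitory receptor. It had 200 and 114 UMIs in Angptl4+/+ and 406 and 438 UMIs in Angptl4-/- wounds at 1 and 5 dpw. The log2 ratio was 1.12 (0.87 to 1.37) at 1 dpw and 1.44 (1.14 to 1.75) at 5 dpw, or 2.18-fold and 2.71-fold. By the rule of 0.5, 1.39% of 6471 genes were higher and 5.61% lower at 1 dpw. At 5 dpw 2.58% of 6698 genes were higher and 6.08% lower, and on both days 0.519% of 6171 were higher and 1.04% lower. Of these 6171 genes 13, Fcgr2b included, had ratios on both days at least as high as 1.12.

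The split of genes called higher or lower in neutrophil-like cells moved with the scaling, which shifted every ratio by 0.10 to 0.14 on the log2 scale. With total UMIs, 19.9% of the called genes were higher at 1 dpw and 29.8% at 5 dpw. With edgeR TMM factors these shares were 51.3% and 55.0%, and with DESeq2 size factors 55.3% and 58.3%. The ratio of Fcgr2b was 1.25 to 1.55 under those scalings. Fcgr3 (0.12 and 0.24), Fcgr4 (0.31 and 0.18) and Fcer1g (0.03 and 0.13) were above 0 on both days with total UMIs and lay higher with the other factors. Fcgr1 had 68 to 72 UMIs per library and ratios of 0.02 (-0.48 to 0.52) and -0.46 (-0.97 to 0.04).

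The difference in Fcgr2b was present in every neutrophil-like cluster with enough UMIs. It was higher in Angptl4-/- in 5 of 5 clusters with at least 20 UMIs on each day, with log2 ratios of 0.70 to 1.53 at 1 dpw and 0.74 to 1.90 at 5 dpw. The BC100530/Stfa2 cluster had too few, with 1 and 1 UMIs in Angptl4+/+ and 5 and 2 in Angptl4-/- wounds. All clusters of a day come from the same 2 libraries. In the Csf3/F3 cluster the level was 5.8 and 10.0 CPM in Angptl4+/+ wounds and 16.8 and 33.7 CPM in those of Angptl4-/- mice. In the Csf1/Cldn1 cluster it was 13.1 and 11.8 CPM against 34.4 and 44.1 CPM. With the cells of the 4% highest doublet score left out the ratios were 1.13 and 1.48, and with classes set by the marker score of each cell the ratio at 1 dpw was 0.71.

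The level itself was low, and part of it lay within the range of the class taken here as background. An Fcgr2b UMI was present in 4.14% and 3.82% of Angptl4+/+ and in 7.97% and 9.46% of Angptl4-/- neutrophil-like cells at 1 and 5 dpw (median depth 4683, 3218, 4637 and 3392 UMIs). In NK cell/T cell-like cells, a class of T cells and NK cells that should lack it, the shares were 8.33% and 5.26% in Angptl4+/+ wounds and 13.9% and 5.53% in those of Angptl4-/- mice, at median depths of 6273.5 to 7136 UMIs. Only the Angptl4-/- library of 5 dpw lay above that deeper class. The class is an uncertain measure of background. Its Hist1h1b/Hist1h2ap sub-cluster had 0 of the listed NK and T cell markers among its leading genes. These were cell cycle genes such as Top2a and Mki67, so the missing markers do not settle what the cells are. The median depth of this sub-cluster was 22320 UMIs, far above that of the class. At 5 dpw this sub-cluster held 20 of 33 Fcgr2b UMIs of the class in Angptl4+/+ and 39 of 51 in Angptl4-/- wounds. At 1 dpw it held 6 of 23 and 12 of 18, and the Il10/Ccr3 sub-cluster held 16 of 23 in Angptl4+/+ wounds.

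After each cell was thinned to 1000 UMIs the shares in neutrophil-like cells were 1.06% and 1.39% in Angptl4+/+ wounds and 2.58% and 3.14% in those of Angptl4-/- mice, against 5.56% and 1.32% and against 0 and 0.461% in the NK cell/T cell-like class, which held only 36 cells in each 1 dpw library. At this matched depth both Angptl4-/- libraries lay above that class and the Angptl4+/+ libraries lay below or close to it. The Angptl4+/+ shares alone are thus not set apart from background, and 36 cells do not settle the 1 dpw comparison. There were 2.78 and 1.68 Fcgr2b UMIs per Fcgr1 UMI in Angptl4+/+ neutrophil-like cells, and 5.97 (4.61 to 7.84) and 6.26 (4.85 to 8.17) in Angptl4-/- cells. In macrophage-like cells this ratio was 0.686 and 1.39 in Angptl4+/+ wounds and 0.514 and 1.14 in those of Angptl4-/- mice, below the neutrophil-like value in each library. Most Fcgr1 UMIs of neutrophil-like cells came from the Ifit1/Ifit3b cluster, as given above.

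Fewer activating UMIs were counted per inhibitory UMI in neutrophil-like cells of Angptl4-/- than of Angptl4+/+ wounds. The denominator in the Angptl4+/+ libraries was only 200 and 114 UMIs of Fcgr2b, and the part of free RNA in it was not tested. The UMIs of Fcgr1, Fcgr3 and Fcgr4 per UMI of Fcgr2b were 66.1 (57.5 to 76.3) and 61.0 (50.7 to 74.1) in Angptl4+/+ and 34.1 (30.9 to 37.7) and 26.4 (24.0 to 29.1) in Angptl4-/- wounds at 1 and 5 dpw. In macrophage-like cells the ratio was 2.51 and 1.72 in Angptl4+/+ wounds and 3.22 and 1.96 in those of Angptl4-/- mice, lower at 5 dpw than at 1 dpw in both genotypes. In monocyte-like cells it was 2.91 and 4.54 against 2.86 and 4.43, higher at 5 dpw in both genotypes. Dendritic cell-like cells had 0.818 (0.682 to 0.979) and 0.715 (0.627 to 0.815) in Angptl4+/+ wounds. In those of Angptl4-/- mice they had 1.17 (0.945 to 1.44) and 0.570 (0.487 to 0.666). The ratio thus lay below 1 except in the Angptl4-/- library of 1 dpw. Capture can differ between the genes, so the ratio compares classes and libraries and does not count molecules.

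**Figure D4:**
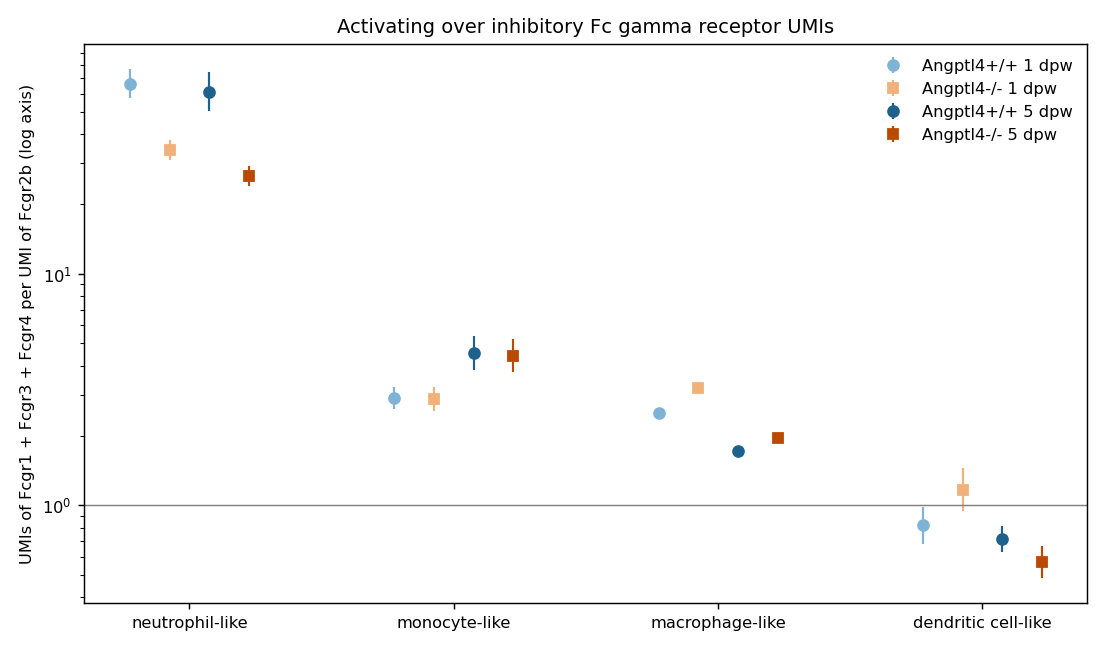
UMIs of the activating receptors Fcgr1, Fcgr3 and Fcgr4 per UMI of the inhibitory Fcgr2b (log axis) by class, with 1 point per library and its exact 95% interval for counting error. Neutrophil-like cells lie at 26.4 to 66.1 with both Angptl4-/- libraries lowest. Dendritic cell-like cells lie at 0.570 to 1.17, below 1 except in the Angptl4-/- library of 1 dpw.

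Some genes near Fcgr2b also differed between the genotypes. Within 5 Mb of it 169 other genes were annotated, 38 of which had enough UMIs on both days in neutrophil-like cells and 63 in mononuclear phagocytes. By the rule of 0.5, 2 of 38 neighbours were higher and 5 lower in neutrophil-like cells at 1 dpw, against 1.39% and 5.61% of all genes. At 5 dpw 2 of 42 were higher and 8 lower, against 2.58% and 6.08%. On both days 1 was higher and 1, not reported here, was lower, against 0.519% and 1.04%. The higher one was Tomm40l, a gene of mitochondrial import, at a distance of 0.25 Mb. It had 48 and 47 UMIs in Angptl4+/+ and 101 and 144 UMIs in Angptl4-/- wounds, with log2 ratios of 1.17 and 1.11, close to those of Fcgr2b.

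In mononuclear phagocytes 2 of the 63 neighbours were higher on both days and 3 lower, against 0.371% and 0.731% of all genes. Ifi202b, an interferon-induced gene 3.01 Mb from Fcgr2b, had 8 and 0 UMIs in Angptl4+/+ and 1581 and 1121 UMIs in Angptl4-/- wounds. Its log2 ratio was 8.18 at 1 dpw and at least 9.18 at 5 dpw against a floor of 3 UMIs. Ifi214 had ratios of 1.35 and 1.5. F11r, a junction protein gene 0.48 Mb away, had -0.74 and -1.45, Dusp23 had -0.73 and -0.59 and Ifi213 had -0.58 and -0.58. In these cells Fcgr2b itself had -0.16 and -0.21, and Tomm40l -0.03 and 0.13, and the difference of these ratios from those in neutrophil-like cells was not tested.

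A further neighbour was picked out after its values were seen, 0.56 Mb from Fcgr2b. Itln1, an intelectin gene, had 0 and 2 UMIs in Angptl4+/+ and 31 and 108 UMIs in Angptl4-/- neutrophil-like cells. Around Fcgrt, in windows chosen after the values were seen, 0 of 61 neighbours passed on both days in mononuclear phagocytes, the classes in which Fcgrt differed. Around Fcgr1 1 of 63 was lower (Selenbp1). Among all genes 0.371% were higher and 0.731% lower there, so counts this small do not set these windows apart from all genes. In neutrophil-like cells 1 of 54 neighbours of Fcgrt was higher and 1 lower, and 0 of 46 around Fcgr1 passed, against 0.519% and 1.04% of all genes. The Angptl4 deletion and any other sequence difference between the lines cannot be told apart with 1 line of each, and the part of the neighbouring differences in that of Fcgr2b was not tested. Fcgr2b and Fcgr3 transcripts share 233 words of 31 bases, which are 4.15% of those of Fcgr2b and 13.4% of those of Fcgr3, and no other pair of the 6 genes shares any. The annotation places Gm38204 on the opposite strand of Fcgr2b.

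**Figure D5:**
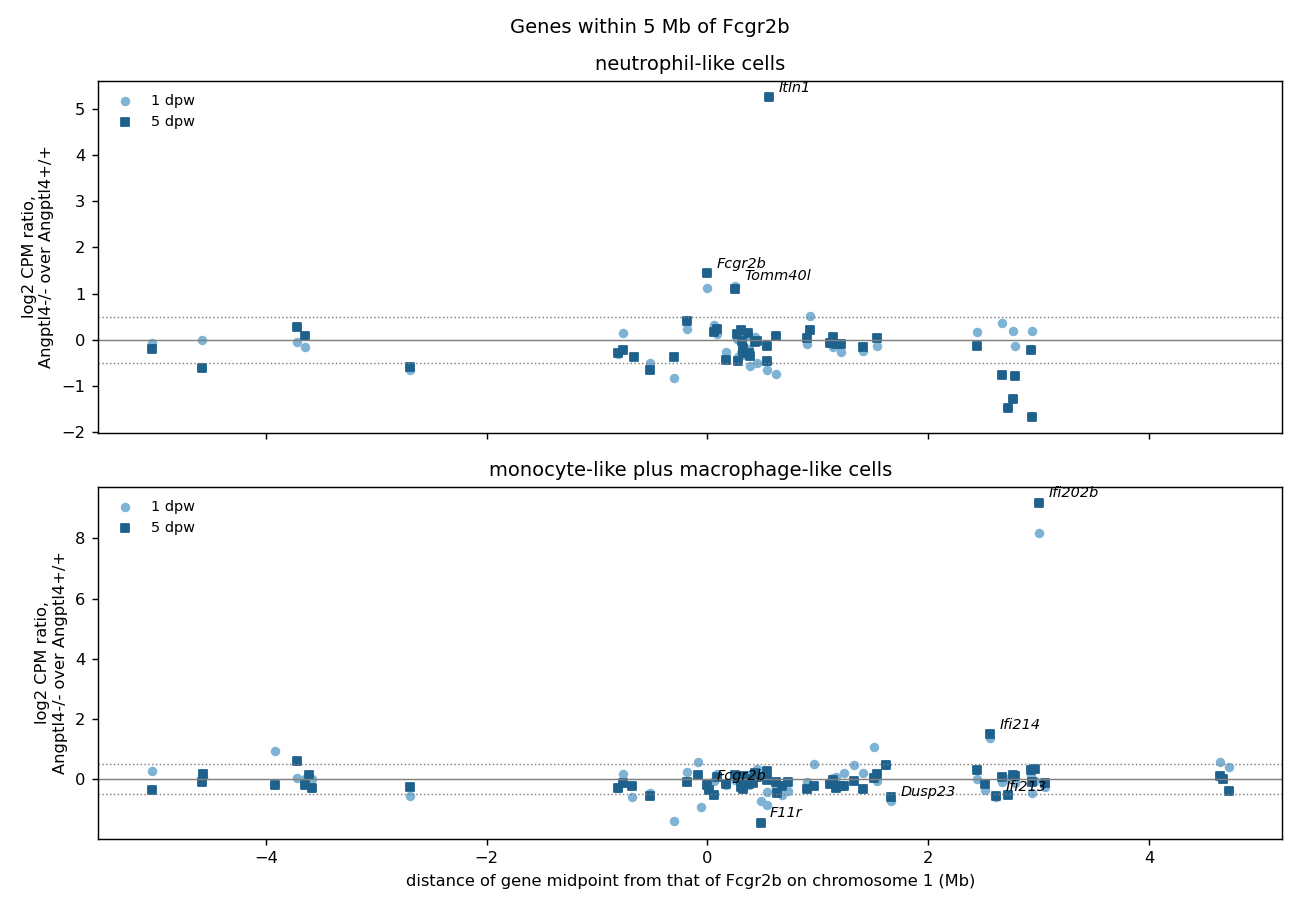
Log2 ratio of CPM, Angptl4-/- over Angptl4+/+, of the genes within 5 Mb of Fcgr2b with at least 100 UMIs in a comparison, by distance from Fcgr2b (Mb). The upper panel shows neutrophil-like cells and the lower panel mononuclear phagocytes (monocyte-like plus macrophage-like cells), dotted lines mark 0.5 in size, and only the genes named in the text are labelled. Fcgr2b and Tomm40l stand above 1 in neutrophil-like cells, where Itln1 lies higher than both at 5 dpw. Ifi202b stands above 8 in mononuclear phagocytes, at 5 dpw as its lower bound.

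Between 1 and 5 dpw Fcgr1 and Fcgrt moved in the same direction in both genotypes, in comparisons that share the libraries of the genotype comparisons. In mononuclear phagocytes Fcgr1 was lower at 5 dpw, with 649 against 408 CPM in Angptl4+/+ and 742 against 430 CPM in Angptl4-/- wounds. The log2 ratios were -0.67 (-0.72 to -0.62) and -0.79 (-0.85 to -0.73). It was the 1 of 6 genes lower by the rule of 0.5 in both genotypes, where 9.68% and 9.72% of all genes were. Within macrophage-like cells it was lower at 5 dpw in 8 of 8 sub-clusters of Angptl4+/+ and 7 of 7 of Angptl4-/- wounds. In the Gpnmb/Npy sub-cluster, for example, it was 1159 against 550 CPM and 1445 against 659 CPM.

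Fcgrt went the other way and was higher at 5 dpw. The log2 ratio for Angptl4+/+ mononuclear phagocytes was 1.44 (1.27 to 1.61), and for those of Angptl4-/- wounds it was 1.80 (1.62 to 1.99). It was the 1 of 6 genes higher by the rule, against 16.6% and 11.3% of all genes. It was higher at 5 dpw in 6 of 7 macrophage-like sub-clusters of Angptl4+/+ and in 7 of 7 of Angptl4-/- wounds. The exception was the Ccl8/Gas6 sub-cluster of Angptl4+/+ wounds, with 273 CPM at 1 dpw and 207 CPM at 5 dpw. Fcgr2b had 0.27 and 0.22, Fcgr3 0.16 and 0.05, Fcer1g -0.21 and -0.05 and Fcgr4 0.12 and -0.35, none of them past the rule. Fcgr4 thus had opposite signs, and it was higher at 5 dpw in 5 of 8 macrophage-like sub-clusters of Angptl4+/+ and 1 of 7 of Angptl4-/- wounds, a difference that was not tested.

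In neutrophil-like cells the median gene itself was higher at 5 dpw, by 0.65 in Angptl4+/+ and 0.68 in Angptl4-/- wounds on the log2 scale. By the rule of 0.5, 58.9% and 60.7% of genes were higher and 5.57% and 4.93% lower. Of the 5 Fc receptor genes with enough UMIs, 1 was higher in Angptl4+/+ (Fcgr1, on 72 and 68 UMIs) and 2 in Angptl4-/- wounds (Fcgr1 and Fcgr2b), and 0 were lower. All these calls rest on total UMIs. Between the days the edgeR TMM factor rose from 0.799 to 1.35 for Angptl4+/+ and from 0.731 to 1.27 for Angptl4-/- cells. Such factors would lower every day ratio here, that of the median gene included. The calls, and the lack of lower genes, thus depend on the scaling and were not repeated with these factors. Against the median gene the abundant receptors had low ratios. Fcgr3 had 0.30 and 0.42, Fcgr4 0.08 and -0.05 and Fcer1g 0.07 and 0.17.

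Few genes of the wider Fc receptor pathway were called, and in neither direction more often than all genes. Of 60 other genes of Fc receptors, their kinases, adaptors and inhibitors, 45 had at least 100 UMIs in mononuclear phagocytes at 1 dpw and 44 at 5 dpw. At 1 dpw 1 was higher and 1 lower by the rule, against 2.7% and 2.72% of all genes, and at 5 dpw 0 were higher and 0 lower, against 2.35% and 4.49%. In neutrophil-like cells 0 of 39 were higher and 1 lower at 1 dpw, against 1.39% and 5.61% of all genes, and 0 of 38 were higher and 2 lower at 5 dpw, against 2.58% and 6.08%. No gene of the list passed on both days in either population. The medians were 0.10 and -0.03 in mononuclear phagocytes and -0.01 and -0.04 in neutrophil-like cells, beside 0.02, -0.01, -0.09 and -0.07 over all genes tested.

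Syk, the kinase next to the activating receptors, had log2 ratios of -0.10 and -0.02 in mononuclear phagocytes and -0.04 and 0.28 in neutrophil-like cells. Inpp5d, the phosphatase recruited by the inhibitory receptor, had 0.23 and -0.21 in mononuclear phagocytes and -0.17 and 0.04 in neutrophil-like cells. Ptpn6, another inhibitory phosphatase, had 0.14 and 0.03, and 0.02 and -0.14. None of these reached the rule, and in neutrophil-like cells the higher Fcgr2b was not accompanied by a ratio past the rule for either phosphatase.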

How the data were processed

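The authors deposited raw UMI counts per gene and barcode, made with Cell Ranger 3.1.0 against mm10, as the submitters' processing notes and the study's methods state, and annotated their cells with Seurat 3.0. Depth was 26981596 to 32962595 UMIs per library. Barcodes with at least 200 genes and at most 10% mitochondrial UMIs were kept. The libraries were integrated by anchors in Seurat 5.3.0 (2000 variable genes, 30 dimensions, resolution 0.5) in R 4.3.3, with the 6 genes and the pathway list kept out of the variable genes. Clusters took names from marker lists, and 25 mast cell or basophil-like and 33 plasmacytoid dendritic cell-like cells were set apart. No annotation of cells by the authors was used. The automatic threshold of scrublet marked 0 to 3 cells per library, so doublets were taken as the 4% with the highest score and left out only as an alternative.

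Counts were summed per class and library. CPM have exact Poisson 95% intervals, ratios exact conditional binomial and shares of cells Clopper-Pearson 95% intervals (scipy 1.17.1). Coverage was tested for the ratio intervals only, on simulated Poisson counts, which hold counting error alone. UMIs of 1 library are not replicates, so intervals and floors cover counting error only. Genes with at least 100 UMIs over the libraries compared were set against a log2 ratio of 0.5 in size (1.414-fold). The neighbours, the pathway list, edgeR 4.0.16 and DESeq2 1.42.0 factors (alternative scalings only) and the cells thinned to 1000 UMIs were used as stated beside each value. The text names the 6 genes, Syk, Inpp5d, Ptpn6 and B2m, the pathway genes and chromosome 1 neighbours at least 0.5 in size with 1 sign on both days (at most 10 each, with 1 neighbour not reported here), the 3 genes most correlated in log2(CPM + 1) with each member among genes with at least 1000 UMIs, and Ptprc and Angptl4. The members, lists and rules were chosen with earlier results of these data known. Gene positions are from GENCODE M21 and promoter sequences from RefSeq, in which 6 of 6 members matched.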

Additional observations from a re-analysis of the deposited data

Results flagged for a closer look

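For Fcgr2b and Fcgr4 the genotype ratio (log2, Angptl4-/- over Angptl4+/+) had opposite signs in the main populations on both days. The ratio of Fcgr2b was -0.16 at 1 dpw and -0.21 at 5 dpw in mononuclear phagocytes, and 1.12 and 1.44 in neutrophil-like cells. That of Fcgr4 was -0.055 and -0.52 in mononuclear phagocytes and 0.31 and 0.18 in neutrophil-like cells. The difference between the populations was not tested, since each ratio compares 2 libraries, and the interval of Fcgr4 in mononuclear phagocytes at 1 dpw (-0.17 to 0.06) includes 0. In neutrophil-like cells the other scalings moved all ratios upwards by 0.10 to 0.14.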

How the results depend on the processing

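Of 252 alternative values of the genotype ratios, 250 kept the sign and 243 the side of 0.5. For the 4 ratios at least 0.5 in size with at least 100 UMIs, 42 of 42 alternatives kept the sign and 40 stayed at least 0.5. Both exceptions were Fcgr4 in mononuclear phagocytes at 5 dpw, at -0.495 with DESeq2 factors and -0.449 with classes by the score of each cell. Values outside the counting interval of the reported one follow, in log2 units, and the cause was not tested. Among mononuclear phagocytes at 1 dpw, thinning gave 0.27 for Fcgr1, -0.071 for Fcgr2b, -0.17 for Fcer1g and 0.67 for Fcgrt (0.30 as reported, now past 0.5, on few UMIs). Sub-clusters weighted equally, chosen after seeing the data, gave 0.075 for Fcgr1, -0.23 for Fcgr4 and -0.14 for Fcer1g. At 5 dpw thinning gave -0.31 for Fcgr2b, 0.19 for Fcgr3, -0.73 for Fcgr4 and 0.17 for Fcer1g. For Fcgr2b resolution 1.0 gave -0.30, classes by the score of each cell -0.29 and equal weights -0.15, and for Fcer1g DESeq2 factors gave 0.14 and equal weights 0.054. In neutrophil-like cells at 1 dpw, classes by the score of each cell gave -0.55 for Fcgr1 (0.02 as reported) and 0.71 for Fcgr2b (1.12 as reported). TMM and DESeq2 factors gave 0.25 and 0.27 for Fcgr3, 0.44 and 0.46 for Fcgr4 and 0.16 and 0.17 for Fcer1g. Clusters weighted equally, also chosen after seeing the data, gave 0.17 for Fcgr3 and 0.049 for Fcer1g, and thinning gave 0.049 for Fcer1g. At 5 dpw the same factors gave 0.34 and 0.35 for Fcgr3 and 0.23 and 0.24 for Fcer1g, and for Fcgr4 thinning gave 0.29 and DESeq2 factors 0.29. The median class ratio after thinning was -0.49 for Fcer1g and 7.24 for Fcgrt. The share of all genes past the rule of 0.5 was 5.42% and 6.85% in the mononuclear and 7.0% and 8.66% in neutrophil-like cells at 1 and 5 dpw. With no minimum of UMIs it was 22.6%, 24.0%, 28.6% and 32.7%, and with a log2 ratio of at least 1 it was 0.710%, 1.10%, 0.943% and 1.05%. Of the other values, 40 of 140 activating-to-inhibitory ratios and 235 of 672 levels fell outside the counting interval of the reported value. For medians the range over the 4 libraries took its place. The counting error of the alternative value itself, which is large after thinning, was not included. Depth limits Fcgr1 and Fcgrt in neutrophil-like cells. No paired analysis was possible because each group is 1 library and no test was made.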

Other observations

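Other Fc receptor genes marked small classes of the wound. Fcer1a and Ms4a2, the other chains of the high-affinity IgE receptor, had 44 and 36 UMIs over the 25 mast cell or basophil-like cells of all libraries (508 and 416 CPM) and 0 UMIs in neutrophil-like and in macrophage-like cells. The same 25 cells held 2563 CPM of Fcer1g (2237 to 2923) and 289 CPM of Fcgr3 (187 to 426), at a median depth of 1880 UMIs. They also held 25051 CPM of the neutrophil gene S100a8, against 63187 CPM in neutrophil-like cells, and its part in their Fcgr3 level was not tested. Fcer2a, the low-affinity IgE receptor of B cells, was 420 to 427 CPM in the B cell-like cells of the 2 libraries with enough of them. These 55 B cell-like cells held 66.3 CPM of Fcgr2b (37.1 to 109) and 0 UMIs of Fcgr1. Fcrls, an Fc receptor-like gene, was 11 to 79.1 CPM in macrophage-like cells. In the 33 plasmacytoid dendritic cell-like cells of all libraries Fcgrt was 114 CPM (82.0 to 155) and Fcer1g 1210 CPM. The Fcgrt level there differed between the 5 dpw libraries. It was 217 CPM in Angptl4+/+ (32 UMIs, 14 cells) and 37.5 CPM in Angptl4-/- wounds (5 UMIs, 12 cells). This log2 ratio of -2.53 (-4.25 to -1.16) was opposite in sign to that in dendritic cell-like cells, on few cells, and was not tested.

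Both kinds of Fc gamma receptor were also counted in the same single cells. After thinning to 1000 UMIs, 23.6% to 27.2% of macrophage-like cells held a UMI of an activating receptor and of Fcgr2b, and 22.7% to 26.7% held neither. In neutrophil-like cells 46.5% to 56.0% held an activating receptor and 0.493% to 1.79% held both. Among macrophage-like cells 59.4% to 65.2% held an activating receptor and 34.9% to 45.1% held Fcgr2b. Whether both were seen together more or less often than these separate shares imply was not tested. At this depth a missing UMI does not show that a gene was silent.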
